A study of Homo sapiens with 6 samples.

Results

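The MYC and MAX network was examined in KNS42 cells, an established line grown from a pediatric glioblastoma (GBM), upon depletion of the RNA-binding protein Musashi1 (MSI1). The network genes were taken by name: the MYC family (MYC, MYCN and MYCL), their partner MAX, the MXD repressors (MXD1, MXI1, MXD3 and MXD4), MNT and MGA. All 10 genes were found among the 58174 genes of the table, and 9 of them passed the filter on low expression that left 15069 genes for testing. The siC group was transfected with a control siRNA and the siMSI1 group with a pool of siRNAs directed at MSI1, and polyA RNA of both was sequenced 72 h later, with 3 libraries per group. Since a pool was used in a single cell line, effects of the single siRNAs cannot be told apart.

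MYC, MYCN and MYCL are transcription factors of the basic helix-loop-helix leucine zipper class that bind DNA as dimers with MAX, mostly at the E-box CACGTG, and activate genes of cell growth and ribosome production. The MXD proteins and MNT also dimerize with MAX, occupy the same E-boxes and recruit SIN3-histone deacetylase corepressors, and MGA is a large MAX partner found in a repressive Polycomb complex. MYCN is the family member of the developing nervous system and is amplified in neuroblastoma and in part of pediatric high-grade gliomas.

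Expression is given as FPKM (reads per kilobase of gene, scaled to the size of the library). The libraries held 13087025 to 18024080 reads on genes. MSI1 was at 61.9 to 66.9 FPKM in the siC libraries and 11.2 to 12.3 FPKM in siMSI1 (log2 fold change −2.43, adjusted p = 8.71e-06 by limma with Benjamini-Hochberg adjustment). The neural progenitor and glioma markers SOX2, NES and VIM were abundant, with means of 300.6, 69.2 and 1035 FPKM in siC, whereas S100B was listed at 0 in every library. None of 12 markers of immune, endothelial, oligodendrocyte, epithelial and erythroid cells passed the filter. Their summed level was 0.387 to 0.884 FPKM in siC and 0.764 to 1.43 FPKM in siMSI1, with AIF1 and MOG at 0 in all libraries. The astrocyte marker GFAP rose from 1.63 ± 0.335 to 4.61 ± 0.45 FPKM (SD, n = 3 each, adjusted p = 0.000905 by limma). The 9 glioma and neural markers listed also held EGFR, PDGFRA and NCAM1, whose levels are not given here. Of the 9 markers, 7 were tested, and GFAP was the only 1 called. In 3 of them, GFAP included, every siMSI1 library lay above every siC library, and in 4 every siMSI1 library lay below. Of all tested genes, 21.4% lay above and 21.5% below in this way. The 4 lower markers were SOX2, NES, VIM and PAX6, with log2 fold changes of −0.23, −0.16, −0.26 and −0.45. They did not pass the threshold (adjusted p from 0.011 to 0.0944 by limma). In these bulk libraries, a smaller share of expressing cells and less mRNA per cell cannot be told apart. No label says whether the libraries of a group came from separate cultures, so p-values measure the spread between these libraries, which may be technical.

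MYCN was by far the most abundant MYC family mRNA in KNS42 cells and the only network gene that passed the threshold upon MSI1 knockdown (limma, adjusted p of at most 0.01), where it was higher in siMSI1. In all, 1 of the 9 tested network genes was called (11.1%), against 11.0% of all tested genes, of which 5.15% were higher and 5.83% lower. The share of network genes called was thus that of any tested gene. The libraries held MYCN at 76.0, 78.1 and 80.6 FPKM in siC replicates 1 to 3, against 123, 119 and 118 FPKM in siMSI1 replicates 1 to 3. Every siMSI1 library thus lay well above every siC library, and the spread within a group was small beside the gap. The means were 78.2 ± 2.33 and 120.3 ± 2.4 FPKM (SD, n = 3 each). By limma, MYCN was 1.54-fold higher with a 95% interval from 1.40 to 1.69 (0.62 on the log2 scale with an SE of 0.059, adjusted p = 0.000554). The value rests on 2963 to 4716 reads per library. The exact permutation test over libraries gave p = 0.1 (two-sided), the smallest that 3 libraries against 3 allow.

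**Figure D1:**
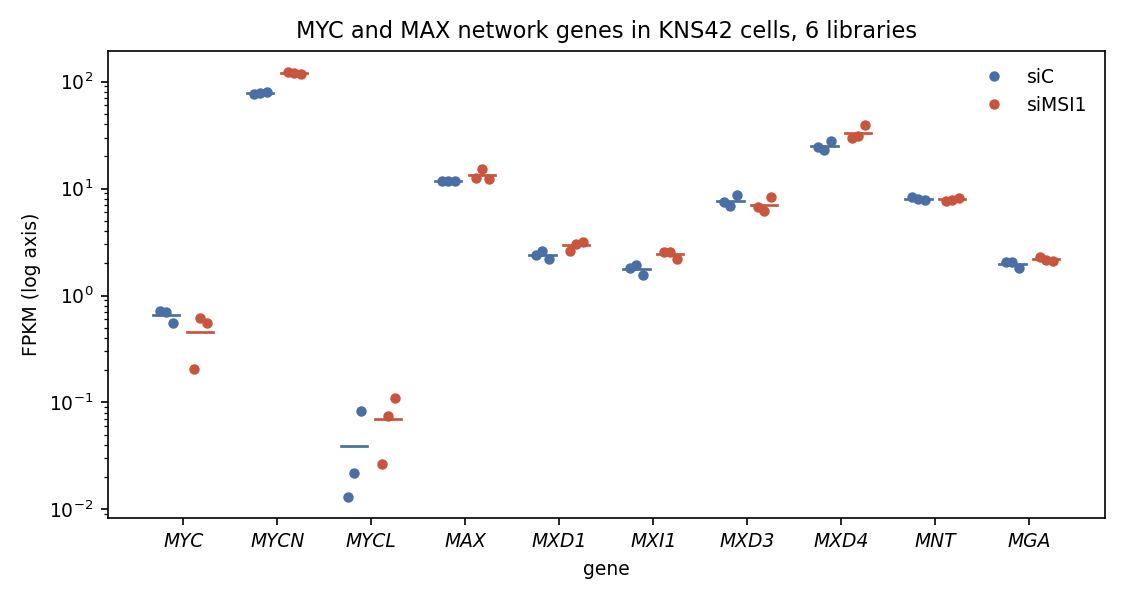
FPKM (log axis) of each network gene in the 3 siC libraries (blue) and the 3 siMSI1 libraries (red), where each point is a library and each line a group mean. MYCN lies above all other network genes in every library, and MYC and MYCL lie below 1 FPKM.

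Few genes as abundant as MYCN in siC rose as much, where both limits were set by the values of MYCN itself. Of the 15069 tested genes, MYCN ranked 411th by its mean level and 999th by log2 fold change from the highest. In siC, 579 genes were at least as high as MYCN, counting MYCN. Of all tested genes, 5.15% rose and 5.83% fell (limma, adjusted p of at most 0.01). By the same threshold, 30 of the 579 genes rose while 56 fell. Only 3 of the 30 had a log2 fold change of 0.62 or more: MYCN itself, the translation elongation factor subunit EEF1B2 (from 170.4 to 269.5 FPKM) and the polyamine acetyltransferase SAT1 (from 119.2 to 189.3 FPKM), which were named after their values were seen. The tested protein-coding genes whose profile over the 6 libraries was closest to MYCN were AGO4, IRF2BP2 and WSB2. Their log2 values, each centred on its own mean, differed from those of MYCN by root mean squares of 0.0339, 0.037 and 0.0408.

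MYCN (ENSG00000134323) occupies positions 15940550 to 15947007 of chromosome 2 (GRCh38, plus strand). Its promoter is shown because MYCN carries the main change. The window covers 250 bases before and 50 bases after the annotated start (RefSeq, GRCh38.p14, chr2:15940300-15940599, plus strand, written 5′ to 3′), and the capitals mark matches to TTTGGCGC or TTTCGCGC, the core of E2F sites, searched on both strands.
MYCN: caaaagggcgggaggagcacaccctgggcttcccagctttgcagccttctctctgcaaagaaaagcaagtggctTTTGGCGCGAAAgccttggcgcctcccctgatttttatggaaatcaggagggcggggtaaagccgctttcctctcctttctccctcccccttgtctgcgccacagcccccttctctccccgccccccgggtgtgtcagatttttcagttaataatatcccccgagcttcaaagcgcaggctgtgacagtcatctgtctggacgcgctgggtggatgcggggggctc
The capitals are 1 match on each strand that overlap each other and begin 176 bases before the start. Of the 35116 promoters in the same table, 1.15% hold such a match, as do 1.86% of the promoters of tested genes. An MGA start site also holds one, and no CACGTG was found in the MYCN window. E2F factors drive genes of S phase entry.

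MYCNOS is transcribed from the strand opposite to MYCN and overlaps the first 1700 bases of the MYCN gene. It was at 6.76, 7.54 and 9.12 FPKM in siC replicates 1 to 3, against 4.41, 5.55 and 4.34 FPKM in siMSI1 replicates 1 to 3. All siMSI1 values were thus below all siC values, opposite to MYCN. MYCNOS had a log2 fold change of −0.70 with an SE of 0.139, and its adjusted p of 0.0101 (limma) lay just above the threshold, with 48 to 105 reads per library. Over the 17 alternative settings, the adjusted p of MYCNOS ranged from 0.00471 to 0.0364 and passed in 4 of them. The ratio of MYCN to MYCNOS within a library was 8.85 to 11.2 in the siC libraries and 21.5 to 27.9 in those of siMSI1. The labels call the libraries strand-specific, but whether reads were counted by strand is not given in the sources used here, so shared reads at this locus cannot be told apart.

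**Figure D2:**
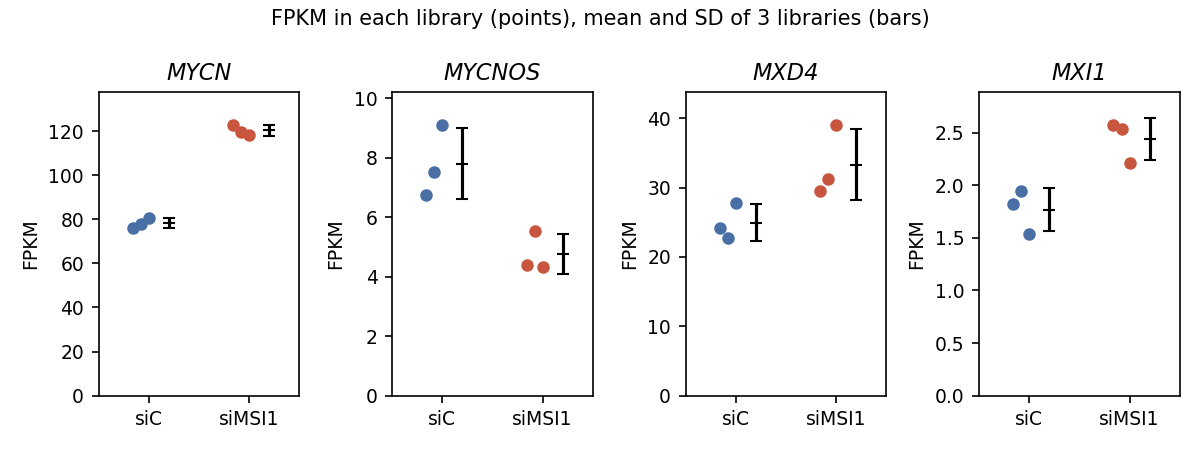
FPKM (linear axes from 0) of MYCN, its antisense neighbour MYCNOS and the repressors MXD4 and MXI1, with a point per library and bars for the mean and SD of 3 libraries per group. MYCN, MXD4 and MXI1 are higher in every siMSI1 library than in every siC library, and MYCNOS is lower in every one.

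MYC and MYCL were barely expressed. MYC (ENSG00000136997, chromosome 8 from 127735434 to 127742951) had 32, 38 and 24 reads in the siC libraries and 9, 24 and 24 in those of siMSI1, or 0.556 to 0.712 and 0.203 to 0.61 FPKM. The siMSI1 libraries 2 and 3 lay within the siC range and siMSI1 replicate 1 lay far below. MYC had a log2 fold change of −0.53 with a 95% interval from −1.46 to 0.40 (adjusted p = 0.378 by limma), which spans both directions. Without siMSI1 replicate 1 the log2 fold change was −0.14. The pooled reads gave a siMSI1 to siC ratio of 0.683 with a 95% interval from 0.483 to 0.959 that covers counting error only, not the spread between libraries. Among coding genes, the profiles of PEX11G, RIBC1 and LY6H were closest to MYC, at root mean squares of 0.179, 0.214 and 0.219. MYCL (ENSG00000116990, chromosome 1 from 39895428 to 39902256) had 1 to 6 reads per siC library and 2 to 8 per siMSI1 library and was not tested. The ratio of its reads was 1.88 with a counting interval from 0.77 to 4.86, so these few reads cannot show a difference.

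MYCN therefore made up 99.1% to 99.2% of the summed MYC family FPKM in siC and 99.4% to 99.8% in siMSI1. The sum was 78.9 ± 2.28 FPKM in siC and 120.8 ± 2.15 FPKM in siMSI1 (SD, n = 3 each). The long non-coding gene PVT1, next to MYC, was at 0.304 to 0.377 FPKM in siC and 0.355 to 0.494 FPKM in siMSI1 and was below the filter. CASC11 had at most 2 reads and CCAT1 at most 12 in any library. CCAT2, MYCNUT and MYCLP1 were at 0 in all.

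MAX, the obligate partner of both branches of the network, was higher in every siMSI1 library but did not pass the threshold. MAX (ENSG00000125952, chromosome 14 from 65006174 to 65102695) was at 11.7, 11.8 and 11.8 FPKM in the siC libraries, and the siMSI1 libraries held it at 12.4, 15.1 and 12.4 FPKM. The siC values lay close together, and siMSI1 replicate 2 stood above the other siMSI1 libraries. By limma, the log2 fold change was 0.17 with a 95% interval from −0.04 to 0.38 (adjusted p = 0.214). The ratio of MYCN to MAX within a library was 6.48 to 6.86 in the siC libraries and 7.92 to 9.90 in siMSI1, with no overlap (two-sided exact permutation p = 0.1, the smallest possible). FNTB, a farnesyltransferase subunit on the opposite strand, overlaps MAX over 56479 bases. It rose from 2.2 to 3.65 FPKM (log2 fold change 0.70, adjusted p = 0.00709 by limma), and the share of its reads within MAX was not tested.

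Of the 4 MXD repressors, MXD4, MXI1 and MXD1 were higher in each siMSI1 library than in any siC library, while MXD3 overlapped between the groups. None of them passed the threshold. In all, 6 of the 9 tested network genes had every siMSI1 library above every siC library, against 21.4% of all tested genes, and none had every library below, against 21.5%. Without regard to direction, the groups did not overlap in 42.8% of all tested genes. The median log2 fold change of the 9 was 0.17, and that of all tested genes was 1.46e-05.

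MXD4 (ENSG00000123933, chromosome 4 from 2247432 to 2262109, minus strand) was the main MXD gene and made up 66.4% to 69.0% of the summed MXD FPKM in siC and 71.4% to 74.2% in siMSI1. It was at 24.2, 22.7 and 27.9 FPKM in the siC libraries, against 29.5, 31.3 and 39.1 FPKM in siMSI1. The groups did not overlap, but siMSI1 replicate 3 lay apart from the other siMSI1 libraries. The means were 24.9 ± 2.65 and 33.3 ± 5.09 FPKM (SD, n = 3 each). MXD4 had a log2 fold change of 0.41 with a 95% interval from 0.13 to 0.69 (adjusted p = 0.0425 by limma), or 1.33-fold. The MXD4 promoter is shown with the E-box CACGTG in capitals, since it is 1 of only 2 network promoters with this word (RefSeq, GRCh38.p14, chr4:2262060-2262359, minus strand). The word begins 238 bases before the start.
MXD4: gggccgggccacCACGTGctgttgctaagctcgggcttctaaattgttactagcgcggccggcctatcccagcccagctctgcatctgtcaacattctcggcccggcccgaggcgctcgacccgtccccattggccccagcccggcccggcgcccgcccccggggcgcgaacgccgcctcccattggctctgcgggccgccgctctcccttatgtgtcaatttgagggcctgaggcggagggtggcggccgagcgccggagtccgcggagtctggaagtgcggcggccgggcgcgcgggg

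MXI1 (ENSG00000119950, chromosome 10 from 110207605 to 110287365), which antagonizes MYC, was at 1.83, 1.94 and 1.54 FPKM in the siC libraries, against 2.58, 2.53 and 2.21 FPKM in siMSI1. Its groups were also separate. For MXI1, the log2 fold change was 0.44 with a 95% interval from 0.13 to 0.76 (adjusted p = 0.0465 by limma), with 102 to 175 reads per library. MXD1 (ENSG00000059728, chromosome 2 from 69897688 to 69942945), linked to terminal differentiation, was at 2.42, 2.59 and 2.20 FPKM in the siC libraries, against 2.60, 3.05 and 3.17 FPKM in siMSI1. The highest siC library and the lowest siMSI1 library were almost equal. The log2 fold change was 0.28 with a 95% interval from −0.0046 to 0.56 (adjusted p = 0.136 by limma). The splicing factor gene SNRNP27 overlaps the annotated MXD1 gene on the same strand over 7888 bases and rose from 8.38 to 15.0 FPKM (log2 fold change 0.83, adjusted p = 0.000571 by limma). The part of shared reads in the MXD1 value was not tested.

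MXD3 (ENSG00000213347, chromosome 5 from 177301461 to 177312757), the MXD member linked to proliferating cells, was at 7.43, 6.93 and 8.79 FPKM in the siC libraries, against 6.67, 6.20 and 8.26 FPKM in siMSI1. The groups overlapped and replicate 3 was the highest in both. MXD3 had a log2 fold change of −0.13 with a 95% interval from −0.44 to 0.17 (adjusted p = 0.501 by limma). RAB24 overlaps the MXD3 gene on the same strand over 2284 bases, with means of 3.97 FPKM in siC and 4.94 FPKM in siMSI1. PRELID1, on the opposite strand, overlaps it over 3151 bases, with means of 70.1 and 81.8 FPKM. Their log2 fold changes of 0.31 and 0.22 did not pass (adjusted p = 0.0556 and 0.173 by limma). The part of shared reads in the MXD3 value was not tested. The ratio of MXD4 to MXD3 within a library was 3.17 to 3.27 in the siC libraries and 4.43 to 5.04 in siMSI1, with no overlap (two-sided exact permutation p = 0.1, the smallest possible). The summed MXD FPKM was 36.8 ± 3.21 in siC and 45.7 ± 6.12 in siMSI1 (SD, n = 3 each), and the ratio of MYCN to this sum was 2.0 to 2.29 in the siC libraries and 2.24 to 2.97 in siMSI1. These ratios overlapped between the groups (exact permutation test, two-sided, p = 0.2).

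MNT and MGA differed little between the groups. MNT (ENSG00000070444, chromosome 17 from 2384073 to 2401104, minus strand), a broadly expressed MAX-dependent repressor, was at 7.80 to 8.32 FPKM in the siC libraries and 7.70 to 8.22 FPKM in siMSI1. Its log2 fold change was −0.02 with a 95% interval from −0.18 to 0.14 (adjusted p = 0.871 by limma). MGA (ENSG00000174197, chromosome 15 from 41621134 to 41773081) was at 1.82 to 2.08 FPKM in the siC libraries and 2.11 to 2.28 FPKM in siMSI1. The groups were separate but close, with a log2 fold change of 0.13 and a 95% interval from −0.14 to 0.40 (adjusted p = 0.45 by limma). The MNT promoter is the other network window with CACGTG, here 193 bases before the start (RefSeq, GRCh38.p14, chr17:2401011-2401310, minus strand).
MNT: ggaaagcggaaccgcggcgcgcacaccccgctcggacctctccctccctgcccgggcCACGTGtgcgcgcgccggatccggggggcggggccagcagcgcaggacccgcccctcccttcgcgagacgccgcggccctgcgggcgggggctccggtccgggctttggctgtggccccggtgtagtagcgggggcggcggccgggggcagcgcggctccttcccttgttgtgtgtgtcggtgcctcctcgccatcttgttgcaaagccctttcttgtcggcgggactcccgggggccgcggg
The window was available for 9 of the 10 network genes, with 14 annotated starts, and 2 genes held the word (22.2%). It was found in the promoters of 8.77% of all genes in the table and of 12.8% of the tested genes.

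**Figure D3:**
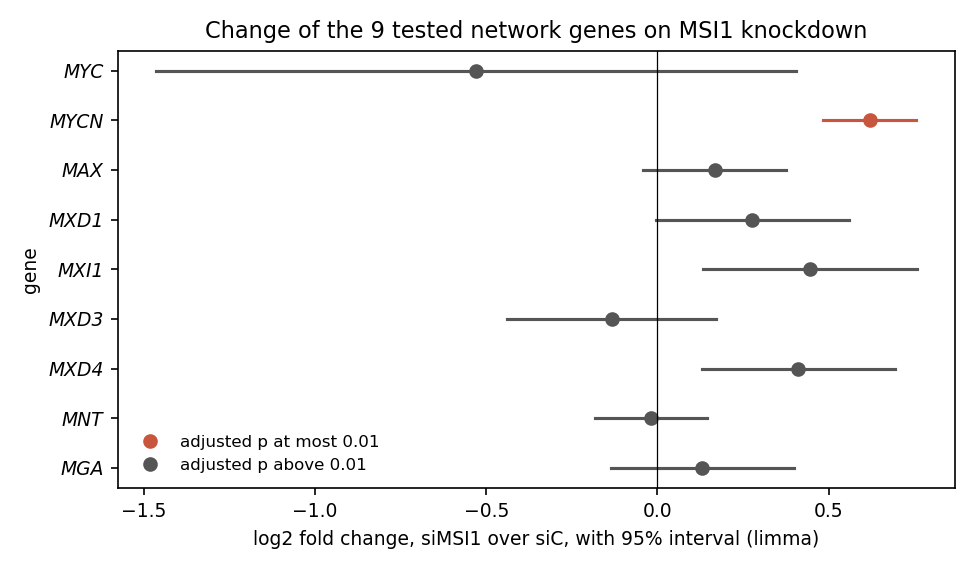
Log2 fold change of siMSI1 over siC for the 9 tested network genes, with the 95% interval of limma as a line. MYCN alone passed an adjusted p of 0.01 (red), the intervals of MXD4 and MXI1 lie above 0, and that of MYC is the widest.

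By level, the network genes followed the order MYCN, MXD4, MAX, MNT, MXD3, MXD1, MGA, MXI1, MYC and MYCL in siC. The neighbours MNT and MXD3 overlapped in FPKM, as did MGA and MXI1, and the other neighbours did not. In siMSI1, MXI1 stood before MGA by mean and the same pairs overlapped. MSI1 binds RNA at short words with the core UAG, often in 3′UTRs, and the words GTAGT and ATAGT of the annotated sequence were counted in the 3′UTR of the canonical transcript. MYCN had 0 words in 907 bases, MXD4 had 1 in 3112 bases, and MNT and MXD3 had 0. MXI1 had 8 in 2378 bases and MXD1 had 8 in 4661 bases. MAX had 2 in 1349 bases, MGA had 3 in 2660 bases and MYC had 1 in 1993 bases. Over 10948 tested genes with a 3′UTR of at least 100 bases, the median was 1.15 words per kilobase and 68.5% had at least 1, so the MXI1 density of 3.36 per kilobase lay above the upper quartile of 2.12.

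Partners, regulators and known targets of the network were described by lists of genes that were drawn up with earlier results of these data known. Over these lists, 19 of 117 tested genes were called (limma, adjusted p of at most 0.01), or 16.2% against 11.0% of all tested genes. Of the listed genes 7.69% were higher and 8.55% lower, against 5.15% and 5.83% of all tested genes. This number hung on single libraries, with 4, 8 and 5 calls without siC replicates 1, 2 and 3. It was 8, 10 and 20 without siMSI1 replicates 1, 2 and 3. The share of all tested genes called also fell in each of these fits. Without siC replicates 1, 2 and 3, the listed genes were called at 3.42%, 6.84% and 4.31%, against 3.43%, 5.6% and 5.32% overall tested. Without siMSI1 replicates 1, 2 and 3, the shares were 6.84%, 8.55% and 17.1%, against 5.41%, 5.85% and 10.6%. NOP16, TFRC and SKP2 passed in all 6 of these fits, and all 19 kept their direction in every alternative setting.

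Among 20 genes that act on the stability or activity of MYC proteins, 1 rose, 1 fell and 18 did not pass the threshold (median log2 fold change −0.04). This is 10.0% called, against 11.0% of all tested genes. SKP2, an F-box ubiquitin ligase subunit that targets MYC and the cell cycle inhibitor p27, fell from 32.1 ± 1.47 to 14.6 ± 1.09 FPKM (SD, n = 3 each, log2 fold change −1.13, adjusted p = 0.000247 by limma). FBXW7, the substrate receptor that degrades phosphorylated MYC and MYCN, differed by 0.30 on the log2 scale (adjusted p = 0.246), and AURKA, which stabilizes MYCN protein, by −0.09 (adjusted p = 0.379), both by limma.

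Of 13 coactivator genes, the acetyltransferase KAT2A rose by 0.51 on the log2 scale (adjusted p = 0.00232) and WDR5, a chromatin docking partner of MYC, fell (log2 fold change −0.55, adjusted p = 0.00227), and the other 11 did not pass (limma). Of 11 genes of the SIN3 and NCOR corepressors, RBBP4 fell (log2 fold change −0.47, adjusted p = 0.00413 by limma) and 10 did not pass. Of 10 genes of the MGA complex, the E2F partner TFDP1 fell (−0.38, adjusted p = 0.00351 by limma) and 9 did not pass. The shares called of the coactivator, corepressor and MGA complex lists were 15.4%, 9.09% and 10.0%, against 11.0% of all tested genes. In the parallel MLX branch, which responds to glucose, MLX and MLXIP had log2 fold changes of 0.03 and −0.09, and MLXIPL was below the filter. Of the 2 MLX targets listed, TXNIP fell by a log2 fold change of −0.62 (adjusted p = 0.00266 by limma), whereas ARRDC4 was at 0.53 without passing (adjusted p = 0.0354). The calls of KAT2A, WDR5, RBBP4, TFDP1 and TXNIP were each lost in 2 to 5 of the 6 fits that left out 1 library.

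Of 52 genes commonly cited as activated by MYC or MYCN, 51 were tested, 5 rose, 5 fell and 41 did not pass, and the median was 0.11 on the log2 scale. This is 19.6% called, against 11.0% of all tested genes. NOP16 and FBL, nucleolar proteins of ribosome assembly, rose by 0.56 and 0.54 on the log2 scale (adjusted p = 0.00111 and 0.00403 by limma). The others that rose, named after their values were seen, were PUS1, RRP12 and POLR1B, the RNA polymerase I subunit. TFRC, the transferrin receptor, fell from 41.7 ± 3.09 to 23.1 ± 1.07 FPKM (SD, n = 3 each), and SHMT1, of one-carbon metabolism, from 10.3 ± 0.792 to 6.03 ± 0.871 FPKM (SD, n = 3 each). Their adjusted p-values were 0.000506 and 0.00324 (limma). The others that fell, also named afterwards, were SHMT2, CDC25A and TMEM97. The 26 genes of ribosome biogenesis in the list, grouped after their values were seen, had a median of 0.21 on the log2 scale, with 4 genes higher and 0 lower. The other 25 had a median of −0.09 with 1 higher and 5 lower. Over all tested genes, 5.15% were higher and 5.83% lower. The difference between the 2 groups was not tested. The number of called targets was 2, 4 and 3 without siC replicates 1, 2 and 3, and 5, 4 and 10 without siMSI1 replicates 1, 2 and 3. In these fits the share of all tested genes called also fell, to between 3.43% and 10.6%. Without siC replicate 1, 3.92% of the targets were called against 3.43% of all tested genes. With eBayes without trend and robust it was 3.92% against 5.62%, so the higher share of called targets was not held under these settings. Only NOP16 and TFRC of these targets passed in all 6 fits that left out 1 library. The other called targets passed in 0 (RRP12) to 3 (SHMT1 and PUS1) of them.

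CACGTG was found in the promoters of 52.4% of the 42 listed targets in the promoter table, against 12.8% of the tested genes. Of the 21 tested targets with the word, 1 rose (FBL) and 0 fell, and their median was 0.12 on the log2 scale. Of the 20 without it, 2 rose and 4 fell, with a median of 0.05. The promoter table lacked 10 other tested targets, of which 2 rose and 1 fell, with a median of 0.22. For comparison, 11.0% of all tested genes were called, with 5.15% higher and 5.83% lower. No test of the difference between targets with and without the word was made.

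Of 12 genes commonly cited as repressed by MYC, 7 were tested, of which 2 rose, 0 fell and 5 did not pass (median log2 fold change 0.33). Of all tested genes, 5.15% were higher and 5.83% lower. The 2 calls became 1, 1 and 0 without siC replicates 1, 2 and 3, and 0, 0 and 2 without siMSI1 replicates 1, 2 and 3. In these fits 3.43% to 10.6% of all tested genes were called, against 11.0% in the main fit. CDKN1A, which encodes the cell cycle inhibitor p21, was at 4.42, 2.81 and 3.33 FPKM in the siC libraries, against 7.32, 7.43 and 7.53 FPKM in siMSI1. It rose in every siMSI1 library, with a log2 fold change of 1.08 (adjusted p = 0.00251 by limma). CDKN1B, which encodes p27, rose from 23.6 ± 0.736 to 33.9 ± 3.03 FPKM (SD, n = 3 each, log2 fold change 0.52, adjusted p = 0.00366 by limma). The call of CDKN1A was lost without siC replicate 3, siMSI1 replicate 1 or siMSI1 replicate 2, and that of CDKN1B in 5 of the 6 fits that left out 1 library.

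**Figure D4:**
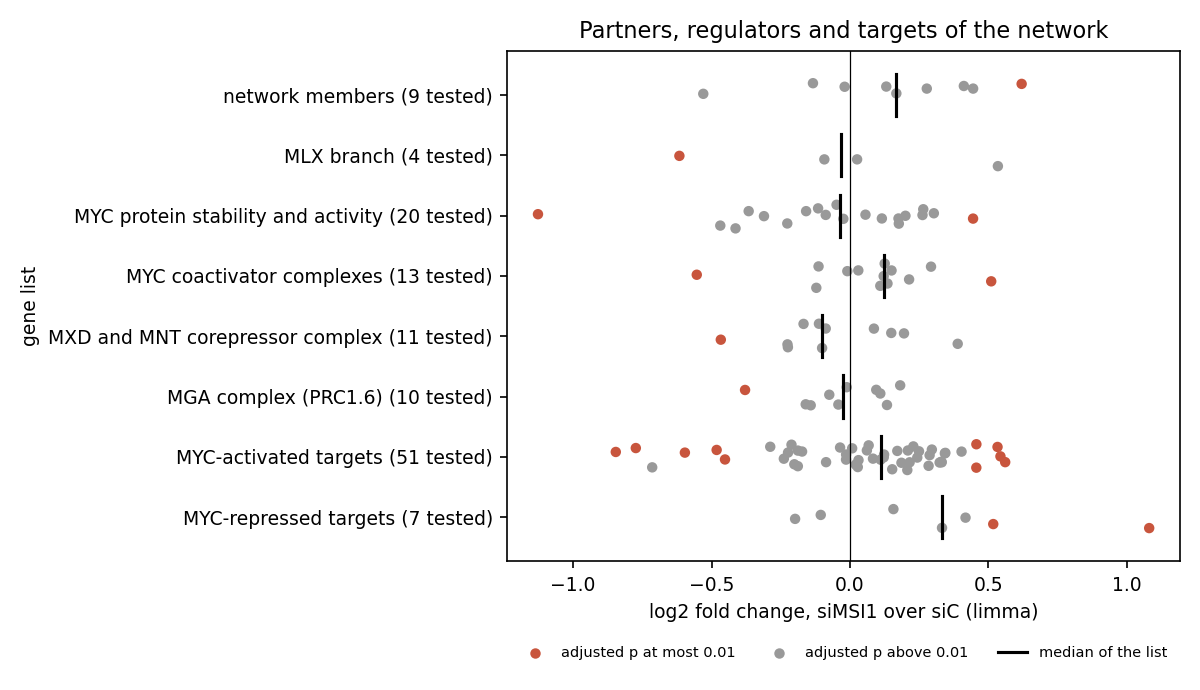
Log2 fold change of siMSI1 over siC for each tested gene of the network and of 7 lists of partners, regulators and targets, where red points passed an adjusted p of 0.01 and black lines are list medians. SKP2 is the leftmost point at −1.13, and CDKN1A the rightmost at 1.08.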

How the data were processed

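The FPKM values were deposited by the authors, who clipped reads with cutadapt 1.14, aligned them to GRCh38 with HISAT2 2.1.0, counted reads per gene with featureCounts 1.5.3 on an Ensembl annotation and scaled them to gene length and library. The deposited table also holds their own fold changes and p-values, which were not used. Gene lengths were those deposited by the authors. Values were tested as log2(FPKM + 0.1) with limma 3.58.1 (R 4.3.3), keeping the 15069 genes whose mean FPKM reached 0.5 (eBayes with trend and robust, no block), adjusted by Benjamini-Hochberg over all of them, with a threshold of 0.01. Fold changes are on this scale, which understates changes of low genes. The deposited unit is FPKM, so limma on the log scale was the main test, and voom on recovered reads was the count model among the alternatives. Reads were recovered as FPKM times length over the value of 1 read, and 100% of the values above 0 were whole within 0.001. Intervals from pooled reads cover counting error only.

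The fit was tested on simulated data. The network genes and lists were chosen with earlier results of these data known. Genes named from a list are up to 2 called genes with the largest rise and up to 2 with the largest fall whose mean FPKM reached 1. Also named are overlapping genes, nearest profiles, cell markers and the genes marked in the text as named after their values were seen. Some genes that were not called are named too, such as FBXW7, AURKA, MLX, MLXIP and ARRDC4. A called gene of the lists is counted but not reported by name here. Positions are from GENCODE release 44 on GRCh38, another release than the authors' annotation. Alternatives were other added values, filters, scalings, variance moderation, threshold, voom on recovered reads, a replicate block and leaving out each library.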

Additional observations from a re-analysis of the deposited data

How the results depend on the processing

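MYCN and MSI1 kept their direction and stayed past the threshold in all 17 alternative settings. The log2 fold change of MYCN ranged from 0.58 to 0.64 and its adjusted p from 1.83e-11 to 0.00637 (limma), and with 1 library left out the log2 fold change of MYCN lay between 0.60 and 0.64. The number of called network genes was 1 in every fit that left out 1 library, 2 (MYCN and MXD4) with voom on recovered reads, and 3 (with MXI1) at an adjusted p of 0.05. The adjusted p of MXD4 and MXI1 reached 0.123 and 0.13. MNT, at −0.02 without a call, turned to 0.00642 and 0.000195 without siC replicate 1 and without siMSI1 replicate 1, and lay between −0.0459 and 0.00642 with 1 library left out. The number of called genes was 1655 and changed to 847 with eBayes without trend and robust, 792 with no filter on low genes, 2690 with voom on recovered reads and 3787 at an adjusted p of 0.05, and lay between 517 and 1603 with 1 library left out. The 19 called genes of the companion lists became 3, 8, 30 and 40 under the same settings, and 4 to 20 with 1 library left out. The causes of these shifts were not tested. Without the filter 29846 genes were tested, and the fits that left out 1 library had fewer libraries.

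The replicate numbers were not treated as pairs in the main fit. The deviations of same-numbered libraries from their group means correlated at −0.0661, 0.0784 and 0.083. Those of differently numbered libraries correlated at −0.144 to 0.07. With the replicate block, 2250 genes and 2 network genes (MYCN and MXD4) were called, with 28 companion genes, and with voom and the replicate block 4870 genes, 3 network genes and 56 companion genes. Not every library correlated best with its own number. MYC with 9 to 38 reads and MYCL with 1 to 8 reads per library are limited by depth.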
